A study of Mus musculus with 6 samples.

Results

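The genes described here are 9 mouse genes known to differ in expression between inbred strains: Glo1, Akr1e1, Erdr1, Trim12a, Cd59a, Wdfy1, Ide, Dpp6 and Mup3. They were chosen by name, and every probe set whose platform annotation names 1 of them alone was taken, which gave 19 of the 20380 probe sets that carry a single gene symbol. Each gene was represented by its brightest probe set, so the 9 stand among 12393 genes on the array. The samples were cultures of hepatocytes, the main metabolic cell type of the liver, in 2 groups of 3 arrays. The first group came from the transgenic strain Alb/AEG-1, in which hepatocytes overexpress AEG-1, the product of the gene Mtdh, and the other from wild-type (WT) mice. Both groups were labelled as a mixed B6/CBA strain, were cultured untreated on collagen and were harvested 24 h after plating. The labels do not give the age of the animals, the number of founder lines, how far each animal carried B6 or CBA alleles, or whether the 3 replicates of a group were separate animals, so p-values measure only the spread between these samples. The sex of the animals did not enter the comparison.

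Inbred mouse strains carry fixed sequence and copy-number differences, many of which change how much RNA a nearby gene makes. In mice of a mixed strain, such alleles can come together in different combinations from animal to animal or from line to line. Glo1 is a well-known case, since some inbred strains carry a duplicated segment that includes it. Ide lies in a segment whose copy number varies within the C57BL/6J strain, and the major urinary protein genes, to which Mup3 belongs, form a cluster that differs widely between strains. The array reads RNA through probes. Whether sequence differences under the probes changed the signal of these genes was not tested, so higher and lower refer to probe set signal.

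The transgene label was checked first. Of the 6 Mtdh probe sets, the brightest read 10.72, 10.40 and 10.81 in Alb/AEG-1 cells, against 8.75, 8.78 and 8.64 in WT cells, on the log2 scale of the deposited values, on which 1 unit is a 2-fold difference. Of the 6, limma called 2 when every probe set was tested, 1455129_at at 1.92 and 1455932_at at 0.24 (adjusted p = 1.87e-05 and 0.0495). The other 4 gave differences from -0.27 to 0.0046 and did not pass, and the sources used here do not say which of the 6 can detect the transgene. Of 9 measured hepatocyte markers, limma called 0 (0 also at an unadjusted p under 0.05), and their mean level ran from 13.90 to 13.94 in Alb/AEG-1 cells and from 13.88 to 13.92 in WT cells. That level is near the top of the array's range (maximum 14.99), where RMA values are compressed, so these markers could show little difference in hepatocyte content. Of 10 Kupffer cell and leukocyte markers 2 rose, Marco and Ptprc, and the list's mean level was 6.81 to 6.88 in Alb/AEG-1 cells against 6.53 to 6.67 in WT cells. The Marco call was lost without Alb/AEG-1 replicate 1, WT replicate 2 or WT replicate 3 (limma adjusted p from 0.0511 to 0.0600). Of 7 endothelial markers 2 rose, Kdr and Clec4g, with list means of 5.99 to 6.09 in Alb/AEG-1 cells and 5.76 to 5.86 in WT cells. The Kdr call was lost without Alb/AEG-1 replicate 2 or 3 or WT replicate 2 or 3 (adjusted p from 0.0534 to 0.0686). Of 7 stellate cell markers limma called 0 (1 at an unadjusted p under 0.05), with list means of 5.14 to 5.22 in Alb/AEG-1 cells and 5.03 to 5.16 in WT cells. These marker counts are to be read against 6.83% of all genes called higher and 9.05% called lower. The array gives no zero values, so no marker could be listed as absent. In whole cultures, fewer cells of a type and less RNA per cell cannot be told apart.

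The comparison of genotypes asks which of these genes differ between hepatocytes that overexpress AEG-1 and WT hepatocytes. Glo1, Akr1e1 and Erdr1 were higher in Alb/AEG-1 cells, by 1.40-fold, 1.62-fold and 1.42-fold. Trim12a was 1.47-fold lower and Cd59a 1.17-fold lower, while Wdfy1, Ide, Dpp6 and Mup3 did not pass the test at their brightest probe sets. The 5 genes called, 3 higher and 2 lower, were read against 15.9% of all genes called in this comparison (6.83% higher and 9.05% lower), by limma with p-values adjusted by Benjamini-Hochberg over all 12393 genes and a threshold of 0.05. Counts called in the family lists below are to be read against the same shares, and no list was tested as a set. Without Alb/AEG-1 replicate 1, 1267 genes were called in place of 1967. The median difference of the 9 genes was 0.041 log2 units and the median size, whatever its sign, 0.22, beside 0.010 and 0.10 over all genes. The 2 groups did not overlap for 6 of the 9 genes, where 34.5% of all genes had groups that did not overlap. The genes were chosen with earlier results of these data known, so these counts describe the 9 genes and test nothing about strain differences.

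**Figure D1:**
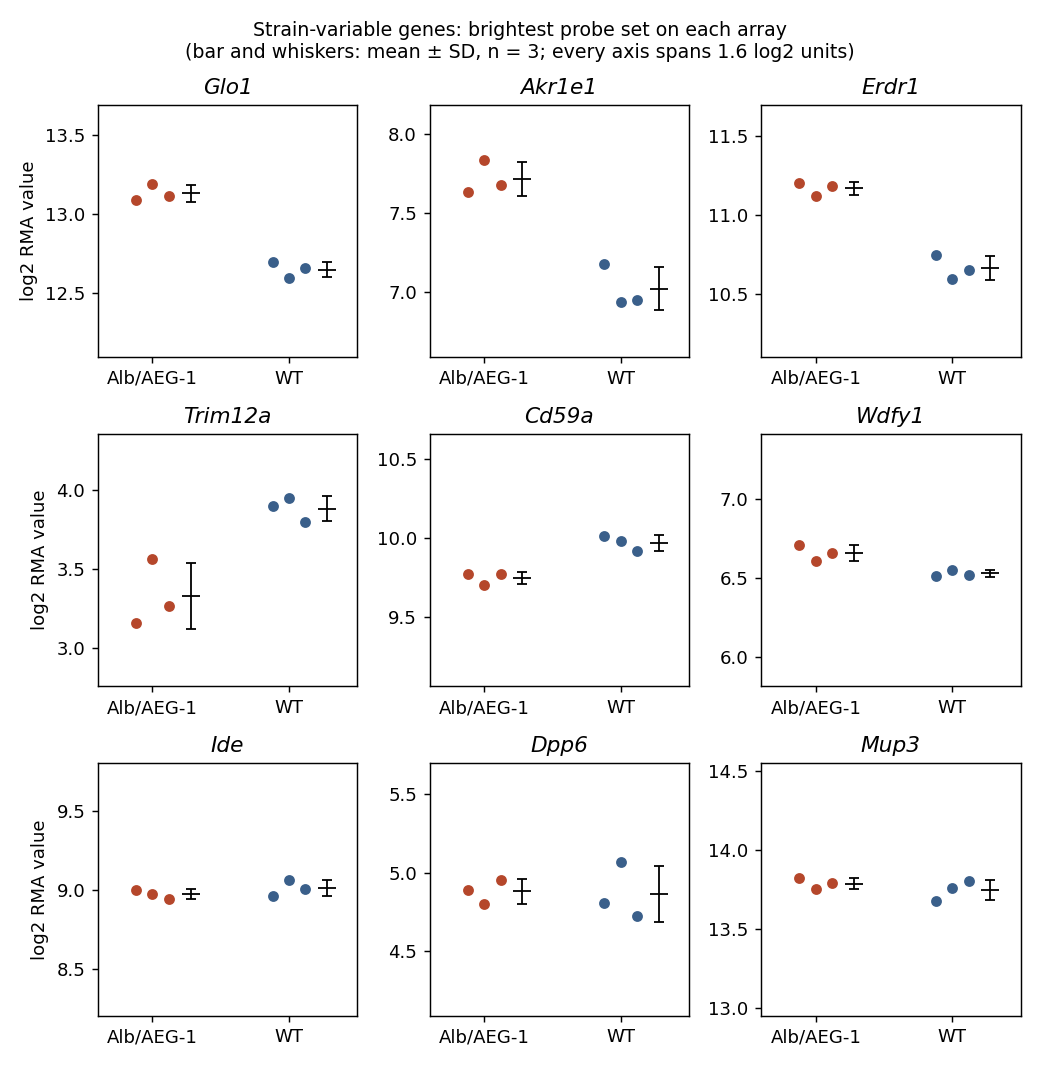
Log2 RMA value (y axis) of the brightest probe set of each of the 9 genes in the 3 Alb/AEG-1 arrays and the 3 WT arrays (points), with the mean ± SD beside them; every panel spans the same log2 range. Glo1, Akr1e1 and Erdr1 sit higher in Alb/AEG-1 cells, Trim12a and Cd59a sit lower, and the groups overlap for Ide, Dpp6 and Mup3.

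The upstream sequences of the called genes are shown because strain differences in expression are often sought there. Of the 9 genes, 7 had an entry in the RefSeq promoter table (build GRCm38.p6, from the C57BL/6J strain), 4 of them called. Erdr1 and Wdfy1 had none. The 250 bases before each start site are printed 5′ to 3′ on the gene's strand, with matches to the motifs CCAAT (the CCAAT box core), GGGCGG (the GC box core), TATANA (the TATA box core) and TGACNNNGC (the antioxidant response element core) in capitals, on either strand. The sources used here do not give the alleles that these animals carried.
Glo1, chr17:30612660-30612909, minus strand: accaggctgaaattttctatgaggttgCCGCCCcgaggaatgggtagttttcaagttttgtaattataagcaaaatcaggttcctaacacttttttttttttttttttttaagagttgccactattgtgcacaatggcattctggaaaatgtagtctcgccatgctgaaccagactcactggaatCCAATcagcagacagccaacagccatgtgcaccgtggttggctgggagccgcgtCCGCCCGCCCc
Akr1e1, chr13:4609165-4609414, minus strand: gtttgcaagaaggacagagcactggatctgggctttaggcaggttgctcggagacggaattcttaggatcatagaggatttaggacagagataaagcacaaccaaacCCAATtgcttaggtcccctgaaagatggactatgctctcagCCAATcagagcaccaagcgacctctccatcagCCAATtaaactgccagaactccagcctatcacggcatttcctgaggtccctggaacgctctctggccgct
Trim12a, chr7:104315496-104315745, minus strand: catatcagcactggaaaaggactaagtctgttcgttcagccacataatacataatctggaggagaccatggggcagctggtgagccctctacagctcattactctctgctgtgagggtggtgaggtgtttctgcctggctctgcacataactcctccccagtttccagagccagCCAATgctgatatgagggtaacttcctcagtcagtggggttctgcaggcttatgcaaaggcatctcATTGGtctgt
Cd59a, chr2:104095551-104095800, plus strand: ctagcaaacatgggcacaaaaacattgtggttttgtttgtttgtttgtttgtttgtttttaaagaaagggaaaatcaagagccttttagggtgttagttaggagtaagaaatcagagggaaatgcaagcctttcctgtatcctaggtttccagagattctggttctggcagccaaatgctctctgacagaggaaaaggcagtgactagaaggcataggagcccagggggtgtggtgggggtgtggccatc

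The Glo1 window held 1 match to CCAAT and 3 to GGGCGG, of which the last 2 overlap each other. Akr1e1 held 3 matches to CCAAT and Trim12a held 2, and neither held GGGCGG. Cd59a held none of the 4 motifs, and TATANA and TGACNNNGC had 0 matches in all 4 windows. Over all 32851 windows of the same length in the table, 33.8% held CCAAT, 32.7% held GGGCGG, 22.6% held TATANA and 10.2% held TGACNNNGC. A match is a run of letters and not a measured binding site.

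Glo1 encodes glyoxalase 1, which uses glutathione to clear methylglyoxal, a reactive by-product of glycolysis. Its brightest probe set, 1424109_a_at, read 13.09, 13.19 and 13.11 in Alb/AEG-1 cells, against 12.69, 12.59 and 12.66 in WT cells. Every Alb/AEG-1 array lay above every WT array. The difference was 0.48 (SE 0.06), with means of 13.13 ± 0.05 in Alb/AEG-1 cells and 12.65 ± 0.05 in WT cells (SD, n = 3 each) and a limma adjusted p of 0.00122. This probe set lay toward the top of the array's range, where RMA values are compressed. The other 2 probe sets, which are less bright, gave larger differences, and the part of compression in this was not tested. Probe set 1424108_at read 12.06, 12.20 and 12.10 in Alb/AEG-1 cells and 11.44, 11.36 and 11.32 in WT cells, a difference of 0.74 (SE 0.07), which is 1.67-fold. Probe set 1451240_a_at read 11.59, 11.53 and 11.54 in Alb/AEG-1 cells and 10.87, 11.00 and 11.02 in WT cells, a difference of 0.59. All 3 passed when every probe set was tested (adjusted p from 0.000278 to 0.00170), in a fit that called 12.6% of probe sets.

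Of 6 measured members of that list, Glo1 included, 1 rose and 0 fell, and the median difference was -0.015. Hagh, the glyoxalase that completes the reaction Glo1 starts, was at 0.12 (adjusted p = 0.223). Lactb2 was at -0.18 (adjusted p = 0.118) and Akr1a1, an aldehyde reductase, at -0.12 (adjusted p = 0.160). Lactb2 passed as lower, at -0.24 (adjusted p = 0.0254), when the mean of its probe sets stood for the gene, and at -0.31 (adjusted p = 0.0140) at its most variable probe set. Akr1a1 passed as lower at its most variable probe set, at -0.24 (adjusted p = 0.0463). With a variance trend, Lactb2, Akr1a1 and Hagh passed at the differences first given (adjusted p = 0.0153, 0.00786 and 0.0356). Among the genes nearest to Glo1 on chromosome 17, Dnah8 and Glp1r, which lie in the segment duplicated in some strains, were at 0.20 (adjusted p = 0.116) and 0.13 (adjusted p = 0.503). Both gave low signal, with means of 3.54 and 3.32 in Alb/AEG-1 cells, under the array median of 5.61 to 5.64. The Dnah8 groups did not overlap, at 3.46 to 3.70 in Alb/AEG-1 cells and 3.31 to 3.37 in WT cells, where 34.5% of all genes had groups that did not overlap. At its most variable probe set Dnah8 was at -0.010 (limma adjusted p = 0.966), and the mean of its probe sets gave 0.097 (adjusted p = 0.373). The gene 1700097N02Rik, between Glo1 and Dnah8 in gene order, was at 0.10 (adjusted p = 0.355). Its means were 5.42 in Alb/AEG-1 cells and 5.31 in WT cells. Cmtr1, a cap methyltransferase, was the 1 of 6 neighbours called, at 0.23 (adjusted p = 0.0450). Its call was lost when any array but WT replicate 2 was left out (adjusted p from 0.0783 to 0.144).

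Akr1e1 encodes an aldo-keto reductase that converts 1,5-anhydrofructose to 1,5-anhydroglucitol, and a single probe set, 1417826_at, measures it. It read 7.63, 7.84 and 7.68 in Alb/AEG-1 cells, against 7.18, 6.93 and 6.95 in WT cells. The groups did not overlap, and the lowest Alb/AEG-1 array stood clear of the highest WT array. The difference of 0.70 (SE 0.09) was the largest in size among the brightest probe sets of the 9 genes, with means of 7.72 ± 0.11 in Alb/AEG-1 cells and 7.02 ± 0.14 in WT cells (SD, n = 3 each; limma adjusted p = 0.00149).

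Of 13 measured members of the family, Akr1e1 was the 1 that rose and 3 fell, and the median difference was -0.054. Akr1c20, which lies close to Akr1e1 on chromosome 13, fell by 0.43 (SE 0.07), with means of 11.07 ± 0.05 in Alb/AEG-1 cells and 11.51 ± 0.10 in WT cells (adjusted p = 0.00399). Akr1c14, a hydroxysteroid dehydrogenase, fell by 0.40 (adjusted p = 0.0109). Akr1d1, the steroid 5-beta-reductase of bile acid synthesis, fell by 0.25 (adjusted p = 0.0459), a call lost when any array but Alb/AEG-1 replicate 2 was left out (adjusted p from 0.0711 to 0.140). Akr1c20 was also the 1 of 6 neighbours of Akr1e1 that was called. The genes whose values over the 6 arrays ran most like those of Akr1e1 were D8Ertd738e, Slc3a1 and Cyp2a12, with Pearson's r of 0.9991, 0.9983 and 0.9972, as a description of 6 arrays in 2 groups. Their own differences between the groups were 0.13, 0.29 and 0.060.

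Ide encodes the insulin-degrading enzyme, a zinc metallopeptidase that cleaves insulin, glucagon and amyloid beta. At its brightest probe set, 1423120_at, it read 9.003, 8.976 and 8.943 in Alb/AEG-1 cells, against 8.965, 9.067 and 9.009 in WT cells. The groups overlapped. The difference was -0.040 (SE 0.055, adjusted p = 0.698), with a 95% confidence interval from -0.17 to 0.087. All 4 Ide probe sets gave differences between -0.040 and 0.13, and limma called 0 of them (0 also at an unadjusted p under 0.05). Of 7 measured genes of insulin degradation and related peptidases, 0 rose and 1 fell. That gene was Mme, the membrane peptidase neprilysin, at -1.13 (SE 0.08, adjusted p = 8.97e-05). Insr, the insulin receptor, was at 0.24 (adjusted p = 0.0563) and passed without WT replicate 1 (0.29, adjusted p = 0.0294). Ceacam1, which promotes insulin clearance, was at 0.17 (adjusted p = 0.113) and passed with a variance trend (adjusted p = 0.0207).

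Of the 6 nearest measured genes of Ide on chromosome 19, 1 rose and 1 fell. Hhex, a homeobox factor of liver development, fell by 0.82 (SE 0.06, adjusted p = 0.000134), with means of 8.84 ± 0.05 in Alb/AEG-1 cells and 9.66 ± 0.08 in WT cells (SD, n = 3 each). Tnks2, a tankyrase, rose by 0.29 (adjusted p = 0.0109), and the mean over its probe sets gave 0.026 (adjusted p = 0.828).

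Dpp6 encodes a dipeptidyl peptidase relative that lacks peptidase activity and acts as a partner subunit of Kv4 potassium channels, mainly in neurons. Its 1 probe set, 1451394_at, read 4.89, 4.80 and 4.95 in Alb/AEG-1 cells, against 4.81, 5.06 and 4.72 in WT cells. The groups overlapped, and all 6 values lay under the array median. The difference was 0.016 (SE 0.094, adjusted p = 0.942), with a 95% confidence interval from -0.20 to 0.23. Of 12 measured genes of the DPP4 family and Kv4 channel partners, limma called 0 (4 at an unadjusted p under 0.05). Kcnip4, a Kv4 channel-interacting protein, was at 0.22 (adjusted p = 0.105) and passed without WT replicate 3 (0.30, adjusted p = 0.0388). Dpp8, a cytosolic peptidase, was at 0.20 (adjusted p = 0.130). Of 6 neuronal and glial markers limma called 0 (1 at an unadjusted p under 0.05), with list means of 4.47 to 4.49 in Alb/AEG-1 cells and 4.34 to 4.38 in WT cells. None of the 6 neighbours of Dpp6 on chromosome 5 was called (0 by limma, 1 at an unadjusted p under 0.05).

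**Figure D2:**
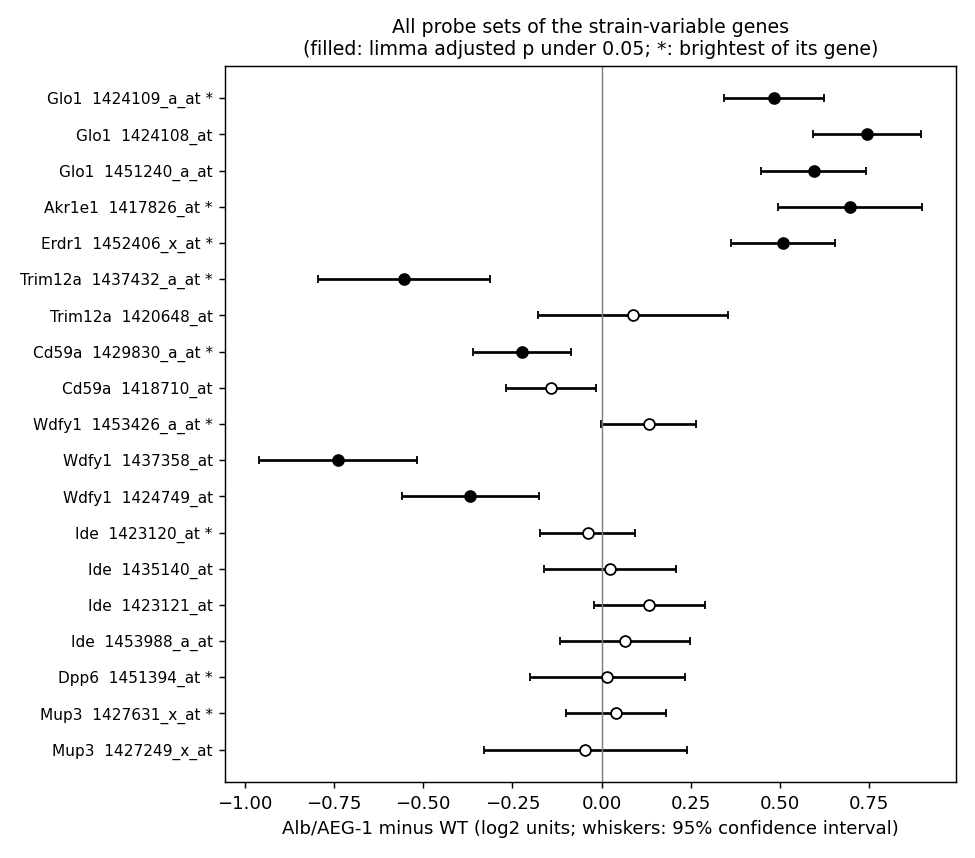
Alb/AEG-1 minus WT difference (x axis, log2 units) for each of the 19 probe sets (rows), with 95% confidence intervals; filled points passed when every probe set was tested, and a star marks the brightest probe set of a gene. All 3 Glo1 probe sets lie between 0.48 and 0.74, all 4 Ide probe sets between -0.040 and 0.13, and the Wdfy1 probe sets fall on both sides of 0.

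Cd59a encodes a membrane-anchored protein that blocks assembly of the membrane attack complex, the pore that complement builds in target cells. At its brightest probe set, 1429830_a_at, it read 9.77, 9.70 and 9.77 in Alb/AEG-1 cells, against 10.01, 9.98 and 9.91 in WT cells. Every Alb/AEG-1 array lay below every WT array, though by a small margin. The difference was -0.22 (SE 0.06), with means of 9.75 ± 0.04 in Alb/AEG-1 cells and 9.97 ± 0.05 in WT cells (SD, n = 3 each; limma adjusted p = 0.0320). The call was lost when any 1 of the 6 arrays was left out (adjusted p from 0.0511 to 0.102), with the difference between -0.25 and -0.20. The other probe set, 1418710_at, read 9.71, 9.72 and 9.68 in Alb/AEG-1 cells and 9.87, 9.82 and 9.84 in WT cells. Its groups did not overlap either, and its difference of -0.14 did not pass (adjusted p = 0.143).

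Of 5 measured complement regulators of the cell surface, Cd59a was the 1 that fell and 0 rose. Cr1l (Crry), which controls complement earlier in the cascade in rodents, was at -0.025 (adjusted p = 0.798). Of 6 measured terminal components, from which the membrane attack complex is built, 3 rose and 0 fell, and the median difference was 0.19. Over all genes, 6.83% were called higher and 9.05% lower, with a median difference of 0.010. C8b rose by 0.61 (SE 0.06, adjusted p = 0.000330) and C9, the pore-forming subunit, by 0.39 (adjusted p = 0.00213). C8b was measured only by probe sets that may match several transcripts. C8a rose by 0.20 (adjusted p = 0.0310), a call lost when any 1 of the 6 arrays was left out (adjusted p from 0.0668 to 0.103).

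Of the 6 nearest measured genes of Cd59a on chromosome 2, 1 rose and 2 fell. Cstf3, an mRNA cleavage factor, rose by 0.72 (SE 0.06, adjusted p = 0.000205), with means of 8.11 ± 0.08 in Alb/AEG-1 cells and 7.39 ± 0.04 in WT cells. Lmo2, a transcription cofactor of blood and endothelial cells, fell by 0.54 (SE 0.08, adjusted p = 0.00247). Cstf3 and Lmo2 were measured only by probe sets that may match several transcripts. Fbxo3, an F-box protein, fell by 0.29 (adjusted p = 0.00892), and the mean over its probe sets did not pass (-0.14, adjusted p = 0.0921).

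Trim12a encodes a tripartite-motif protein of the family that holds the retroviral restriction factor TRIM5 of primates. Its brightest probe set, 1437432_a_at, read 3.16, 3.56 and 3.27 in Alb/AEG-1 cells, against 3.90, 3.95 and 3.80 in WT cells. The Alb/AEG-1 arrays were all lower and were spread more widely than the WT arrays. The difference was -0.55 (SE 0.10), with means of 3.33 ± 0.21 in Alb/AEG-1 cells and 3.88 ± 0.08 in WT cells (SD, n = 3 each; limma adjusted p = 0.00995). All of these values are dim, brighter on average than only 11.1% of genes, where a fold is less certain. The other probe set, 1420648_at, read 3.57, 3.54 and 3.46 in Alb/AEG-1 cells and 3.48, 3.65 and 3.16 in WT cells, a difference of 0.089 with overlapping groups (adjusted p = 0.693). With the mean of both probe sets the difference was -0.23 and did not pass (adjusted p = 0.136).

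Of 8 measured TRIM genes 1 rose, Trim25, and 1 fell, Trim12a. Trim25, which activates the RNA sensor RIG-I, rose by 0.64 (SE 0.06, adjusted p = 0.000377), measured only by probe sets that may match several transcripts. Trim6 was at 0.35 (adjusted p = 0.0864), and passed without Alb/AEG-1 replicate 1 (0.47, adjusted p = 0.0310). Trim21, an intracellular antibody receptor, was at 0.31 (adjusted p = 0.0978). Trim21 passed without WT replicate 1 (0.43, adjusted p = 0.00805) and at 0.58 with the mean of its probe sets (adjusted p = 0.00271). With a variance trend, Trim6 and Trim21 both passed (adjusted p = 0.0479 and 0.0441). None of the 6 genes next to Trim12a on chromosome 7, which include Trim6, Trim34a, Trim30a and Trim30d, was called (0 by limma, 1 at an unadjusted p under 0.05). Trim34a, beside Trim12a, was at -0.35 (adjusted p = 0.255). The genes with values most like those of Trim12a over the 6 arrays were Phospho2, Tdp2 and Lcmt2, with Pearson's r of 0.9969, 0.9967 and 0.9945, again as a description.

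Wdfy1 encodes a protein with a FYVE domain, which binds endosomal membranes, and WD40 repeats, and it has been described as an adaptor in signalling by the toll-like receptor TLR3. Its 3 probe sets did not move together. The brightest, 1453426_a_at, read 6.71, 6.61 and 6.66 in Alb/AEG-1 cells, against 6.52, 6.55 and 6.52 in WT cells. The Alb/AEG-1 arrays were slightly higher with no overlap, and the difference of 0.13 (SE 0.05) did not pass (limma adjusted p = 0.153). Probe set 1437358_at read 6.15, 6.09 and 6.20 in Alb/AEG-1 cells, against 6.69, 6.89 and 7.07 in WT cells, a difference of -0.74 (SE 0.10, adjusted p = 0.00199 with every probe set tested). Probe set 1424749_at read 5.44, 5.54 and 5.39 in Alb/AEG-1 cells, against 5.98, 5.77 and 5.72 in WT cells, a difference of -0.37 (SE 0.08, adjusted p = 0.0246). On both of these, every Alb/AEG-1 array lay below every WT array.

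**Figure D3:**
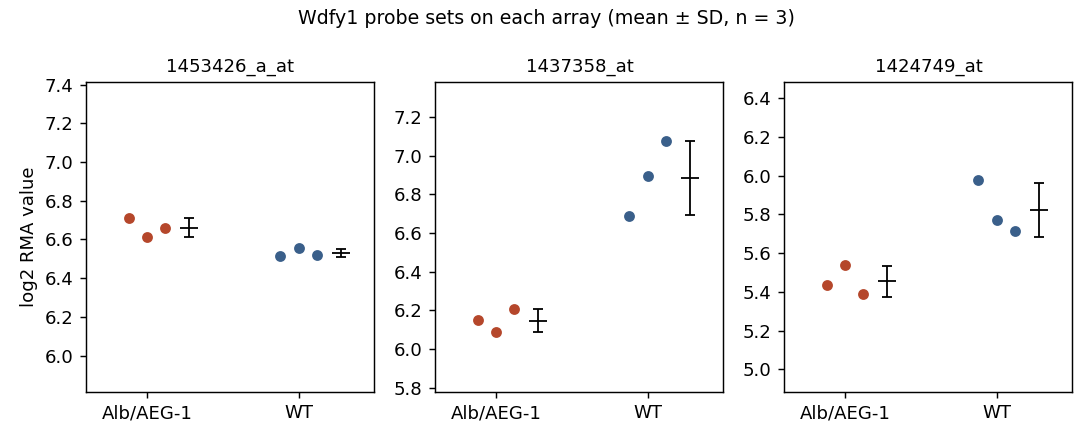
Log2 RMA value (y axis) of the 3 Wdfy1 probe sets in the 3 Alb/AEG-1 arrays and the 3 WT arrays (points), with the mean ± SD beside them. Alb/AEG-1 cells sit slightly above WT cells on 1453426_a_at and below them on 1437358_at and 1424749_at.

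The disagreement within Wdfy1 was measured as the log2 ratio of the brightest probe set to each other probe set of the same gene, an analysis added after the values had been seen. The ratio to 1437358_at was 0.51 ± 0.05 in Alb/AEG-1 cells and -0.36 ± 0.19 in WT cells (SD, n = 3 each), a difference of 0.87 (SE 0.11, limma adjusted p = 0.00385). The ratio to 1424749_at was 1.21 ± 0.12 in Alb/AEG-1 cells and 0.71 ± 0.15 in WT cells, a difference of 0.50 (SE 0.11, adjusted p = 0.0432). Over all 7987 such pairs on the array, 3.34% were called. Trim12a was also called, with a ratio of its brightest to its other probe set of -0.19 ± 0.22 in Alb/AEG-1 cells and 0.45 ± 0.17 in WT cells (difference -0.64, adjusted p = 0.0395). The Glo1, Cd59a, Ide and Mup3 pairs did not pass, with adjusted p from 0.132 to 0.806. The sources used here do not say which transcripts each probe set detects. They give neither the probe sequences nor the alleles of these animals. Whether sequence differences under the probes have a part in the disagreement within Wdfy1 and Trim12a was therefore not tested.

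Of 6 measured genes of the Wdfy1 family and TLR3 signalling, 1 rose and 0 fell. Tlr3 rose by 0.47 (SE 0.06, adjusted p = 0.00164), or gave 0.22 (adjusted p = 0.209) without probe sets that may match several transcripts. Wdfy3, a large autophagy scaffold, was at 0.29 (adjusted p = 0.0503) and passed without Alb/AEG-1 replicate 3 (0.36, adjusted p = 0.0406). Of the 6 genes nearest to Wdfy1 on chromosome 1, 1 rose and 3 fell. Mogat1, a monoacylglycerol acyltransferase, fell by 1.87 (SE 0.06, adjusted p = 1.86e-06), with means of 4.19 ± 0.09 in Alb/AEG-1 cells and 6.06 ± 0.02 in WT cells. Irs1, an insulin receptor substrate, fell by 0.37 (adjusted p = 0.0113). Kcne4, a potassium channel subunit, fell by 0.22 (adjusted p = 0.0343), a call lost when any array but WT replicate 2 was left out (adjusted p from 0.0776 to 0.111). Scg2, a secretogranin at the low level of 3.49 in Alb/AEG-1 cells and 3.19 in WT cells, rose by 0.30 (adjusted p = 0.0115).

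**Figure D4:**
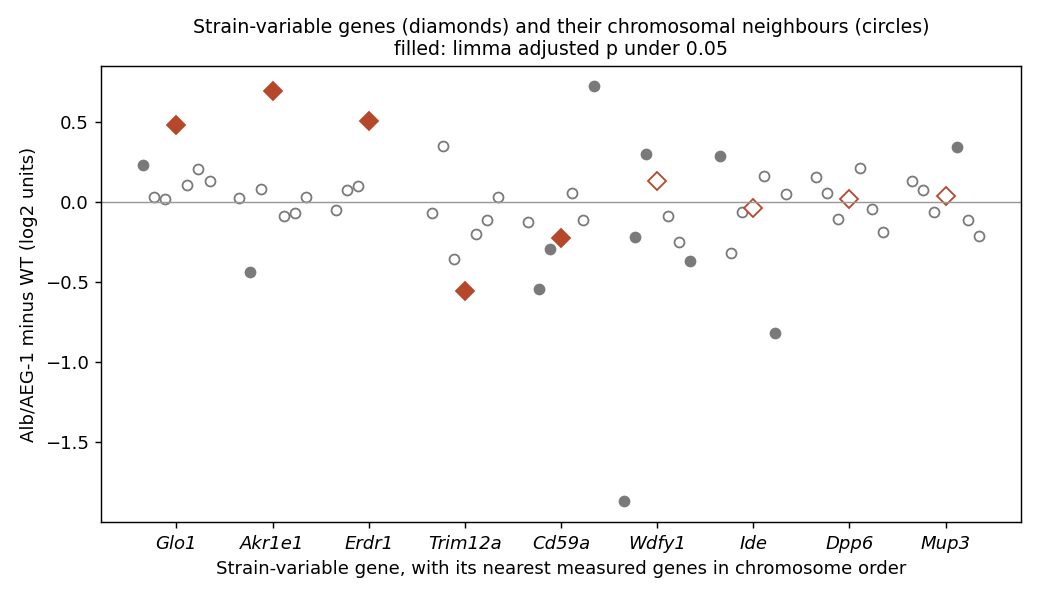
Alb/AEG-1 minus WT difference (y axis, log2 units) of each of the 9 genes (diamonds) and of up to 3 nearest measured genes on each side in chromosome order (circles); filled symbols passed the limma test. The called neighbours lie around Cd59a, Wdfy1 and Ide and singly beside Glo1, Akr1e1 and Mup3.

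Erdr1 is named for erythroid differentiation regulator 1 and lies at the pseudoautosomal end of the sex chromosomes, a region that recombines between X and Y. The RefSeq gene table of GRCm38.p6 lists it as a transcribed pseudogene on the X chromosome. Its 1 probe set, 1452406_x_at, is of the kind that may match several transcripts. It read 11.20, 11.13 and 11.19 in Alb/AEG-1 cells, against 10.75, 10.60 and 10.65 in WT cells. The groups did not overlap. The difference was 0.51 (SE 0.06), with means of 11.17 ± 0.04 in Alb/AEG-1 cells and 10.66 ± 0.07 in WT cells (SD, n = 3 each; limma adjusted p = 0.00120). Mid1, which spans the pseudoautosomal boundary in mice, was at 0.073 (adjusted p = 0.449). The other neighbours measured, Hccs and 4933400A11Rik, did not pass, so limma called 0 of 3 (0 also at an unadjusted p under 0.05). Of 4 erythroid markers 0 rose and 1 fell, Klf1, and the mean level of the list was 5.80 to 5.91 in Alb/AEG-1 cells and 5.89 to 5.98 in WT cells.

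Mup3 encodes a major urinary protein, a lipocalin that the liver secretes and that carries pheromones in mouse urine. Its brightest probe set, 1427631_x_at, read 13.82, 13.75 and 13.79 in Alb/AEG-1 cells, against 13.68, 13.76 and 13.81 in WT cells. The groups overlapped, and the signal was near the top of the array's range, where RMA values are compressed. The difference was 0.041 (SE 0.058, adjusted p = 0.706), with a 95% confidence interval from -0.093 to 0.17. The other probe set, 1427249_x_at, gave low signal, with 4.57, 4.27 and 4.61 in Alb/AEG-1 cells, 4.30, 4.59 and 4.69 in WT cells, and a difference of -0.045. Both probe sets may match several transcripts, so close relatives in the cluster cannot be told apart by them. Of 7 measured lipocalins and pheromone carriers 1 rose and 0 fell. That gene was Ptgds, a prostaglandin D synthase, at 0.41 (adjusted p = 0.00780). Mup5, next to Mup3 on chromosome 4, was at -0.059 (adjusted p = 0.671). Of the 6 neighbours of Mup3, Zfp37 rose by 0.34 from a dim probe set (adjusted p = 0.0284), a call lost without Alb/AEG-1 replicate 2 or 3 or WT replicate 2 or 3 (adjusted p from 0.0771 to 0.0917).

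Taking each neighbouring gene once, 51 were measured beside the 9 genes, of which 5 rose, 7 fell and 39 did not pass. The share called is to be read against the 15.9% over all genes. Neighbours moved in both directions around Cd59a, Wdfy1 and Ide, of which Ide, and Wdfy1 at its brightest probe set, did not pass themselves. The part that Kupffer and endothelial markers, given above, have in the differences of Cd59a, Trim12a and Wdfy1 was not tested, and neither was the part of the strain alleles.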

How the data were processed

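The data are 6 Affymetrix arrays of total RNA (250 ng each), labelled as biotinylated cRNA per the labels' protocols. Per the submitters' processing notes, the authors computed the deposited log2 values, 1 per probe set, with the RMA method of Affymetrix Expression Console. That method corrects for background and gives all arrays a like distribution, so differences are relative to the rest of the transcriptome. All 6 columns have the same maximum, 14.99. The sources used here give neither its version nor whether arrays were normalized jointly. Arrays have no read depth, and their number limits the precision.

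Of 22690 probe sets, 64 were controls, 20380 carried 1 gene symbol, 691 several and 1555 none. Only the 20380 were used, each gene at its brightest by mean over the arrays (12393 genes, of which 12369 matched GRCm38.p6 gene IDs, from which gene order was taken). Alb/AEG-1 minus WT differences were fitted with limma (lmFit and eBayes, limma 3.58.1, R 4.3.3, data.table version 1.17.8), two-sided, Benjamini-Hochberg adjusted over all genes, threshold 0.05. The procedure was tested on simulated data. Probe sets with ID endings x, s or a before "at" may match several transcripts.

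The members and lists were chosen with earlier results of these data known. Genes were named by rule: all 9 genes, up to 4 of each family list with the smallest p, neighbours past the threshold (up to 3 measured genes on each side), and the 3 genes with the highest Pearson's r to the member with the largest increase and to the member with the largest decrease. Further genes named in the text were chosen after their values were seen. Alternatives covered the probe set that represents a gene, every probe set tested, probe sets that may match several transcripts, a filter on the dimmest 25% of genes, quantile normalization, median centring, the variance prior, array weights, a replicate block, a threshold of 0.01 and leaving out each array. No batch, slide or date label was given.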

Additional observations from a re-analysis of the deposited data

How the results depend on the processing

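Over all alternatives, Glo1, Akr1e1 and Erdr1 passed as higher wherever they could be measured, in 17 of 17, 17 of 17 and 16 of 16 settings, with differences from 0.45 to 0.74, 0.64 to 0.78 and 0.47 to 0.55. Cd59a passed as lower in 9 of 17, Trim12a in 14 of 16 and Wdfy1 in 3 of 17, and Trim12a was too dim to be tested once the dimmest 25% of genes were left out. Ide, Dpp6 and Mup3 passed in none (0 by limma, lowest adjusted p 0.533, 0.373 and 0.493). Without probe sets that may match several transcripts, 3 of 7 measured genes passed in place of 5 of 9, Trim12a turned to 0.089, Trim34a to 0.092 and Wdfy1 to -0.74. Erdr1, Mup3, Trim25, C8b, Cstf3, Lmo2, Ptprc, Akr1a1 and Dnah8 could not be measured in that setting. At its most variable probe set Wdfy1 was again at -0.74, Ide at 0.023, Mup3 at -0.045, Dpp8 at -0.092 and Dnah8 at -0.010. Averaging over all probe sets put Wdfy1 at -0.33, Ide at 0.046 and Mup3 at -0.0024. Quantile normalization turned Dpp6 to -0.0089, and leaving out 1 array moved Dpp6 between -0.055 and 0.12 and Glp1r between -0.0042 and 0.21. The cause was not tested. Leaving out 1 array gave 1267 to 1700 genes called, 4 of the 9 genes each time (Cd59a being the one lost) and 17 to 21 of 103 family and neighbour genes, against 1967, 5 and 21. At a threshold of 0.01, 918 genes, 4 of the 9 and 12 of the family and neighbour genes passed. A variance trend called 33 of the family and neighbour genes, an alternative computed after seeing the data. Deviations from the group means correlated at -0.01, -0.0097 and 0.10 for same-numbered samples, and from -0.069 to 0.069 for the other combinations. Deviations within a group of 3 sum to 0, so these values cannot decide whether same-numbered samples were prepared together. With the replicate block 1505 genes and 4 of the 9 passed, Cd59a at an adjusted p of 0.0671 being the call lost. Over all settings, results for the other genes followed kept their direction and side of the threshold 624 times and changed direction 4 times. They lost a call 49 times and gained one 23 times. The genes named for their likeness to Akr1e1 or Trim12a, and some neighbours not called, were not followed across settings. Signal near background limits Trim12a and Dpp6.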
